A study of Homo sapiens with 3 samples.

Results

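The ERBB receptors, a set of their EGF-type ligands and the ERBB2-binding protein ERBIN were followed in the triple-negative breast cancer (TNBC) cell line MDA-MB-468, here MM468. The 10 genes were EGFR, ERBB2, ERBB3, ERBB4, AREG, EREG, HBEGF, TGFA, BTC and ERBIN, chosen by gene symbol from a table of 46427 genes, and each symbol was found in 1 row. RNA-seq of parental MM468 cells that had received no drug was compared with that of MM468/PR cells, which survived exposure to paclitaxel at 2 to 320 nmol/L. Paclitaxel is a taxane that stabilizes microtubules. Both lines carry the wild-type label for genotype and were grown in the same medium, and whether the surviving cells were cloned is not given in the sources used here. The comparison asked which genes accompany chemotherapy resistance. Each line was represented by 1 library, with 32704885 assigned read counts for the parental line and 43242628 for MM468/PR, so no difference had a replicate check and no test was possible.

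The ERBB receptors are tyrosine kinases at the cell surface that pair with each other when a ligand binds, and they signal through the RAS to ERK and PI3K to AKT cascades. The ligands are made as membrane-anchored precursors that proteases release from the cell. ERBB2 has no known ligand of its own and serves as a partner, ERBB3 has weak kinase activity and binds neuregulins, and ERBB4 binds neuregulins and some EGF-type ligands. TNBC lacks hormone receptors and amplified ERBB2, and MDA-MB-468 is known for an amplified EGFR gene.

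Levels of different genes were compared as TPM, a transcript level scaled to transcript length and library size. The lines were compared by the ratio of read counts after TMM scaling of library sizes, and each ratio is given as a fold with an exact binomial 95% interval. This interval covers counting error only, and where an end is below 1 the direction itself is within counting error. For a gene at 0 counts the fold is a bound against a floor of 3 counts in that library, which corresponds to 0.0968 CPM (counts scaled to library size) in parental MM468 and 0.0627 in MM468/PR. In these bulk libraries, fewer cells with a transcript and less of the transcript per cell cannot be told apart.

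The libraries carried the markers of the labelled cell. EPCAM, an epithelial adhesion molecule, had 12913 counts in the parental line and 22209 in MM468/PR, and all 7 epithelial markers examined had 3364 or more counts in both libraries. ESR1, the estrogen receptor, was at 1.69 TPM in parental MM468 and 1.45 in MM468/PR, and PGR, the progesterone receptor, had 0 and 7 counts. The tumor suppressors RB1 and SMAD4, which this line is known to have lost, were below 1 TPM in both libraries. The fibroblast genes COL1A2 and LUM and the T-cell gene CD3E had 0 counts in both, and the pan-leukocyte gene PTPRC had 24 and 44. COL1A1 was counted in each library (659 and 820), as was CSF1R (259 and 112). Among mesenchymal markers, CDH2 (N-cadherin) had 0 counts in the parental line and 618 in MM468/PR, whereas FN1 (fibronectin) had 1744 and 276 and VIM (vimentin) 107 and 106. The part of these marker differences in the values below was not tested.

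Of the 10 genes, 3 stood 2-fold or more apart between the lines. ERBB4 and EREG were higher in MM468/PR and ERBIN was lower. These counts are to be read against the 19561 genes with 10 or more counts in at least 1 library of the series, of which 20.6% were higher in MM468/PR by 2-fold or more and 13.7% were lower, against 2 and 1 of the 10 genes. With 10 genes, these shares are near the background, and the description rests on the single genes and the size of their differences. The median log2 fold change of the 10 genes was 0.41, beside 0.07 over all genes compared.

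**Figure D1:**
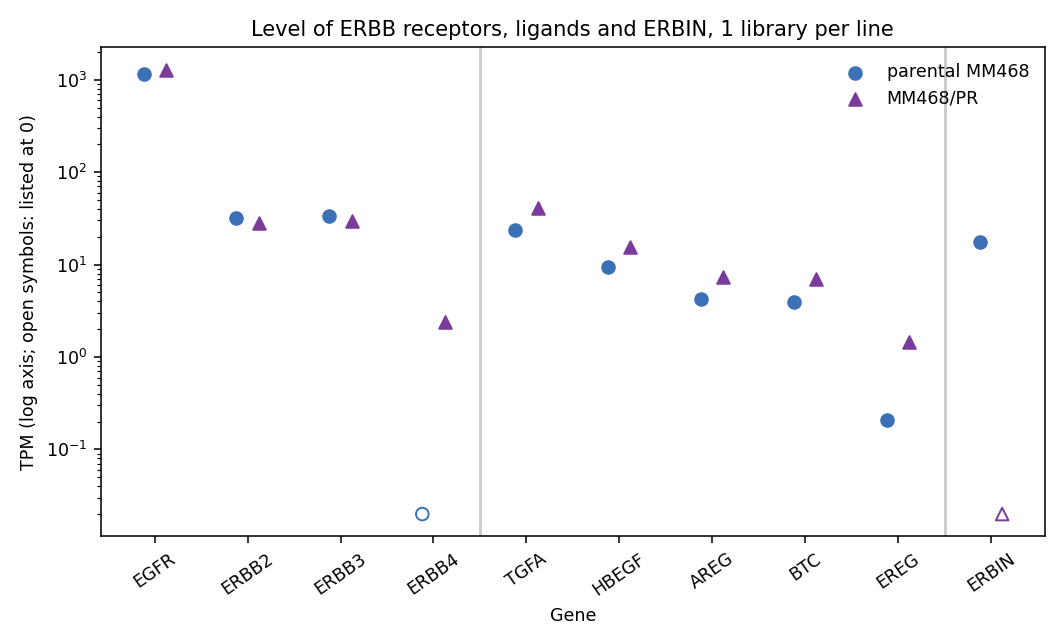
Level of each gene in TPM (vertical log axis) in parental MM468 and MM468/PR, with 1 library per line and 1 point per library; open symbols at the foot of the plot mark a level of 0. EGFR lies above 1000 TPM in both lines, while ERBB4 is at 0 in parental MM468 and ERBIN is at 0 in MM468/PR.

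EGFR was the dominant receptor in both lines. The gene (NCBI Gene ID 1956) lies on the plus strand of chromosome 7, from 55019017 to 55211628 in GRCh38.p14. Its level was 1152 TPM in parental MM468 and 1288 in MM468/PR, which ranked it 93 and 81 among all genes of the respective library, and it took 0.510% and 0.533% of all counts. EGFR made up 94.6% of the summed TPM of the 4 receptors in parental MM468 and 95.5% in MM468/PR, and its level was 34.2 and 43.6 times that of the next receptor. By scaled counts (166693 and 230621 before scaling), EGFR was 1.11-fold lower in MM468/PR than in parental MM468 (95% interval 1.11 to 1.12). This direction turned when counts were scaled by library size only (log2 fold change -0.16 against 0.07) or taken as TPM (0.16). The difference was smaller than the shift of 0.22 that scaling by library size gives to the median of all genes.

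The nearest neighbours of EGFR were also highly expressed. SEC61G, a subunit of the protein translocation channel of the endoplasmic reticulum, ends 259.8 kb before EGFR and was at 5939 TPM in parental MM468 and 7353 in MM468/PR. LANCL2 begins 153.7 kb after EGFR and was at 505 and 598 TPM, and VOPP1 begins 223.3 kb after it and was at 1270 and 1542 TPM. The TPM ranks of these 3 genes lay between 10 and 225 in both libraries. By contrast LOC101060341, the next gene beyond VOPP1 by the same rule, was at 5.24 and 12.7 TPM, and GRB10, the next before SEC61G, was at 14.4 and 8.39 TPM. Of these 10 neighbours, 1 stood 2-fold or more above parental MM468 in MM468/PR (ABCA13, with 0 and 23 counts) and 2 stood below it (DDC, with 138 and 8 counts, and GRB10, with 1069 and 784). These counts are near the shares over all genes compared, of which 20.6% were higher and 13.7% lower. DDC encodes DOPA decarboxylase and GRB10 an adaptor of receptor tyrosine kinases. GRB10 was no longer 2-fold lower with library size only, TPM or FPKM, nor ABCA13 2-fold higher with TPM or FPKM. LOC105375284, a noncoding gene on the minus strand just upstream of EGFR, had 344 counts in the parental line and 1746 in MM468/PR, or 3.29-fold more in MM468/PR (2.93 to 3.71). EGFR-AS1, which overlaps EGFR, had 0 and 13 counts, and whether the counting used strand is not given in the sources used here. LOC105375284 and EGFR-AS1 were singled out after their values were seen.

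**Figure D2:**
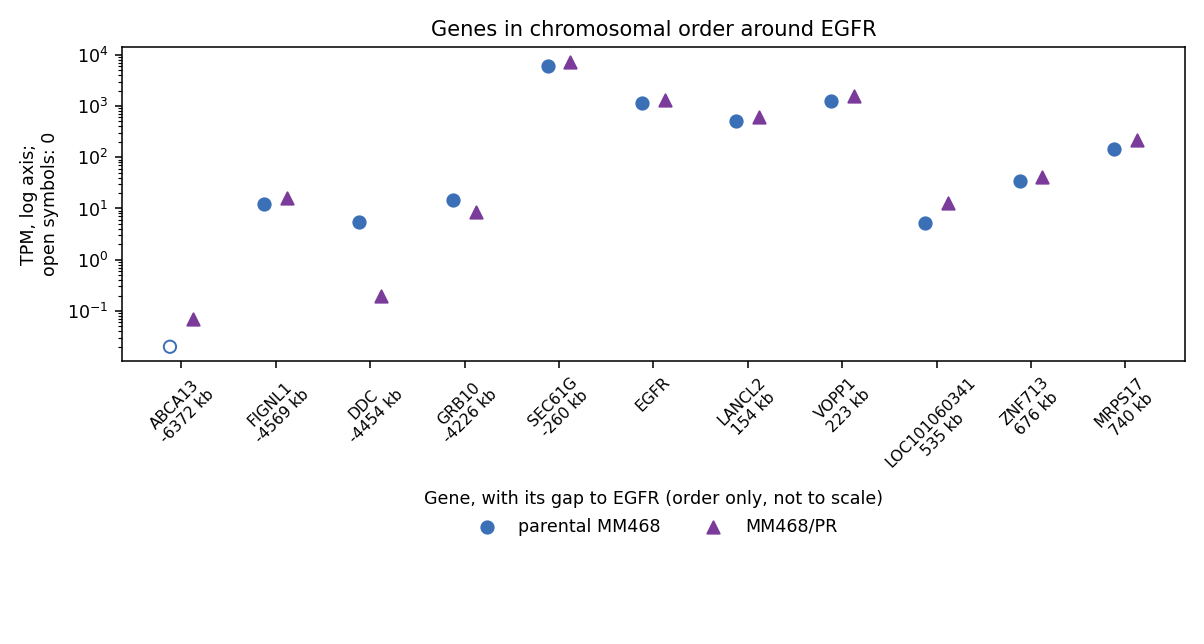
Level in TPM (vertical log axis) of EGFR and the 5 nearest protein-coding genes on each side with 10 or more counts in at least 1 library of the series, in chromosomal order with the gap to EGFR in kb under each name; symbols are the parental and MM468/PR libraries, and an open symbol marks 0. SEC61G, EGFR, LANCL2 and VOPP1 lie between 505 and 7353 TPM in both lines, while GRB10 and LOC101060341 lie between 5.24 and 14.4 TPM.

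ERBB2 and ERBB3 were expressed at similar levels, and neither was 2-fold apart between the lines. ERBB2 (Gene ID 2064, chromosome 17, 39688094 to 39728658, plus strand) was at 32.3 TPM in parental MM468 and 28.1 in MM468/PR. Its counts of 2204 and 2405 made it 1.41-fold lower in MM468/PR (1.33 to 1.50). MIEN1, which overlaps the end of ERBB2 on the opposite strand, had 896 and 1056 counts, so reads of the overlap may have been assigned to either gene. ERBB3 (Gene ID 2065, chromosome 12, 56080108 to 56103505, plus strand) was at 33.7 and 29.5 TPM with 2647 and 2975 counts, and was 1.37-fold lower in MM468/PR (1.30 to 1.45). ERBB3 stood above ERBB2 in both lines, and with 1 library per line there is no replicate spread to set these neighbouring levels apart.

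ERBB4 was counted in MM468/PR and not in parental MM468. The gene (Gene ID 2066, chromosome 2, 211375717 to 212538802, minus strand) had 0 counts in the parental line and 523 in MM468/PR, where its level was 2.37 TPM. It was at least 113-fold higher in MM468/PR, and it remained the lowest of the 4 receptors in both lines. A start from 0 was not rare, since 1092 genes had 0 counts in parental MM468 and 10 or more in MM468/PR. Of these, 29 genes, ERBB4 included, had at least as many counts in MM468/PR as ERBB4.

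The 250 bases upstream of the annotated start of ERBB4 and of EREG, the receptor and the ligand that were 2-fold higher in MM468/PR, are shown to set both windows beside each other. The ERBB4 window is on the minus strand at chr2:212538803-212539052 and the EREG window on the plus strand at chr4:74364895-74365144, both in GRCh38.p14. Capitals mark the letters GCGTG, the core of the response element of the aryl hydrocarbon receptor (AhR), or their reverse complement.
ERBB4: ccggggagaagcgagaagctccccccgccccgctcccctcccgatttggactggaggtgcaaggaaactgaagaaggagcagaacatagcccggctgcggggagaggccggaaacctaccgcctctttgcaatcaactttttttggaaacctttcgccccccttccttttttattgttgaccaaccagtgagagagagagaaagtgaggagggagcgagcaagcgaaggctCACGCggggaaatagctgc
EREG: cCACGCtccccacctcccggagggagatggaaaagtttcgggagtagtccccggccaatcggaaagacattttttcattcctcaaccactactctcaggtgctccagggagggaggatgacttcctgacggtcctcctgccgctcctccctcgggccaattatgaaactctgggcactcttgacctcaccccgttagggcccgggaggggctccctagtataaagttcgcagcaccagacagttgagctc
The AhR core was searched because the study concerns an AhR agonist, and the letters TGANTCA of the AP-1 factors were searched because they act downstream of ERK. RefSeq windows from 250 bases before to 50 bases after the start were searched on both strands, and they were present for 8 of the 10 genes (10 windows), all but ERBB3 and ERBIN. GCGTG was found for 6 of the 8 genes and in 6 of the 10 windows, and in 36.5% of all 35116 windows in the table. TGANTCA was found in 2 of the 10 windows, 1 of EGFR and that of ERBB2, and in 7.71% of all windows. In the ERBB4 window the core begins 19 bases before the start, and in the EREG window 249 bases before it. The core was also found for TGFA, AREG, BTC and HBEGF, which were not 2-fold apart between the lines. A match describes the letters of a window and is not a measured binding site.

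Among the ligands, TGFA was the most abundant in both lines. The 5 ligands summed to 41.6 TPM in parental MM468 and 71.7 in MM468/PR, and TGFA held 57.3% and 56.6% of the sum. TGFA (Gene ID 7039, chromosome 2, 70447284 to 70553826, minus strand), a ligand of EGFR, was at 23.9 and 40.6 TPM with 1455 and 3045 counts. By scaled counts it was 1.36-fold higher in MM468/PR (1.27 to 1.45). HBEGF (Gene ID 1839, chromosome 5, 140332843 to 140346603, minus strand), which binds EGFR and ERBB4, was at 9.40 and 15.3 TPM with 328 and 658 counts, and was 1.30-fold higher in MM468/PR (1.14 to 1.49). The order of levels was TGFA, HBEGF, AREG, BTC and EREG in both lines.

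The remaining 3 ligands, AREG, EREG and BTC, lie in 1 stretch of chromosome 4 together with EPGN (epigen). Along the chromosome the order is EPGN, EREG, AREG and BTC, with gaps of 48.4, 56.4 and 289.8 kb. AREG (amphiregulin, Gene ID 374, 74445136 to 74455005, plus strand), a ligand of EGFR, had 77 counts in the parental line and 165 in MM468/PR, or 4.21 and 7.34 TPM. It was 1.39-fold higher in MM468/PR (1.05 to 1.85). EREG (epiregulin, Gene ID 2069, 74365145 to 74388749, plus strand), which binds EGFR and ERBB4, was the least abundant ligand with 15 and 122 counts, or 0.209 and 1.44 TPM. EREG was 5.27-fold higher in MM468/PR (3.08 to 9.71), and the width of the interval reflects the 15 parental counts. With a pseudocount of 1 added to FPKM, its log2 fold change was 0.53 and that of ERBB4 0.95, so neither was then 2-fold apart. BTC (betacellulin, Gene ID 685, 74744759 to 74794523, minus strand), which also binds EGFR and ERBB4, had 148 and 321 counts, or 3.93 and 6.99 TPM, and was 1.41-fold higher in MM468/PR (1.15 to 1.72). EPGN, a ligand of EGFR, had 59 and 284 counts and was 3.12-fold higher in MM468/PR (2.35 to 4.21). EREG and EPGN were thus 2-fold or more higher, beside 20.6% of all genes compared, and AREG and BTC were not.

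**Figure D3:**
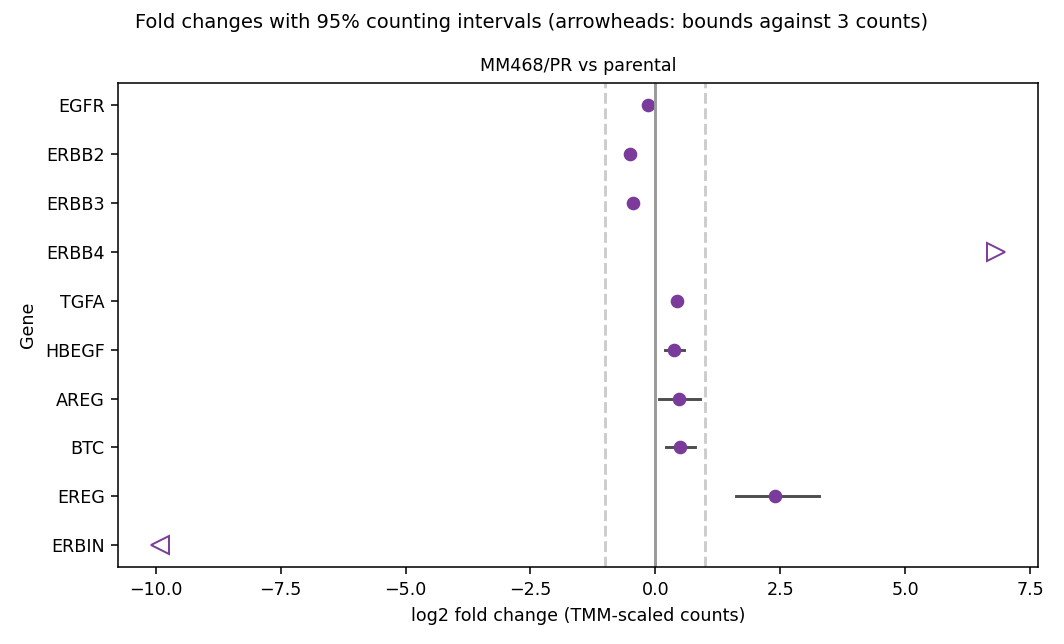
log2 fold change of TMM-scaled counts (horizontal axis) of the 10 genes in MM468/PR against parental MM468, 1 library per line; dots are ratios, bars their 95% counting intervals, open arrowheads bounds against a floor of 3 counts, and dashed lines 2-fold. ERBB4 and EREG lie to the right of the 2-fold line, ERBIN lies at the far left, and the other genes lie within 2-fold.

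ERBIN was not detected in MM468/PR. The protein carries leucine-rich repeats and a PDZ domain, binds the tail of ERBB2 at the basolateral membrane of epithelial cells, and is known to interfere with RAS signaling and with SMAD proteins. The gene (Gene ID 55914, chromosome 5, 65926575 to 66082546, plus strand) had 1871 counts in the parental line and 0 in MM468/PR, or 17.7 and 0 TPM, which put MM468/PR at least 962-fold below parental MM468. Of 6770 genes with 1000 or more counts in parental MM468, ERBIN was the only one at 0 in MM468/PR. With 0 counts set to the floor, it was first by size of decrease among all genes compared. The minimum of 1000 counts was chosen after the values were seen.

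SREK1, the gene next to ERBIN, was also nearly absent from MM468/PR. SREK1 encodes a splicing regulator, lies on the same strand and begins 61.8 kb after ERBIN (chromosome 5, 66144300 to 66183615). It had 1134 counts in the parental line and 13 in MM468/PR, or 135-fold fewer (78.3 to 253), and ranked 10 by size of decrease. NLN (neurolysin), which ends 97.3 kb before ERBIN, had 2420 and 2412 counts, and was 1.55-fold lower in MM468/PR after scaling. Its direction turned in TPM, with 19.3 in parental MM468 and 23.9 in MM468/PR. On the far side, MAST4, which begins 513.8 kb after ERBIN, had 231 and 399 counts and was 1.12-fold higher in MM468/PR. LINC02065, a noncoding gene between SREK1 and MAST4 that was looked up after its values were seen, had 58 and 124 counts. The near absence of counts in MM468/PR therefore covered ERBIN and SREK1, while NLN and MAST4, the nearest coding genes on either side by the same rule, stayed within 2-fold. Of the 10 neighbours of ERBIN, 0 stood 2-fold or more above parental MM468 in MM468/PR and 4 stood below it (SREK1, CD180, PIK3R1 and SLC30A5), with a median log2 fold change of -0.65, beside 20.6% higher, 13.7% lower and a median of 0.07 over all genes compared. SLC30A5 was no longer 2-fold lower with library size only, and CD180 was not with a pseudocount of 1 added to TPM or FPKM. PIK3R1, the regulatory subunit of PI3K, lies 2133 kb beyond ERBIN and had 2703 and 1685 counts. CD180, which lies beyond MAST4, had 42 and 8 counts and was 8.10-fold lower in MM468/PR (3.75 to 20.0). DNA was not measured here, and whether the locus itself differs in MM468/PR was not tested.

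**Figure D4:**
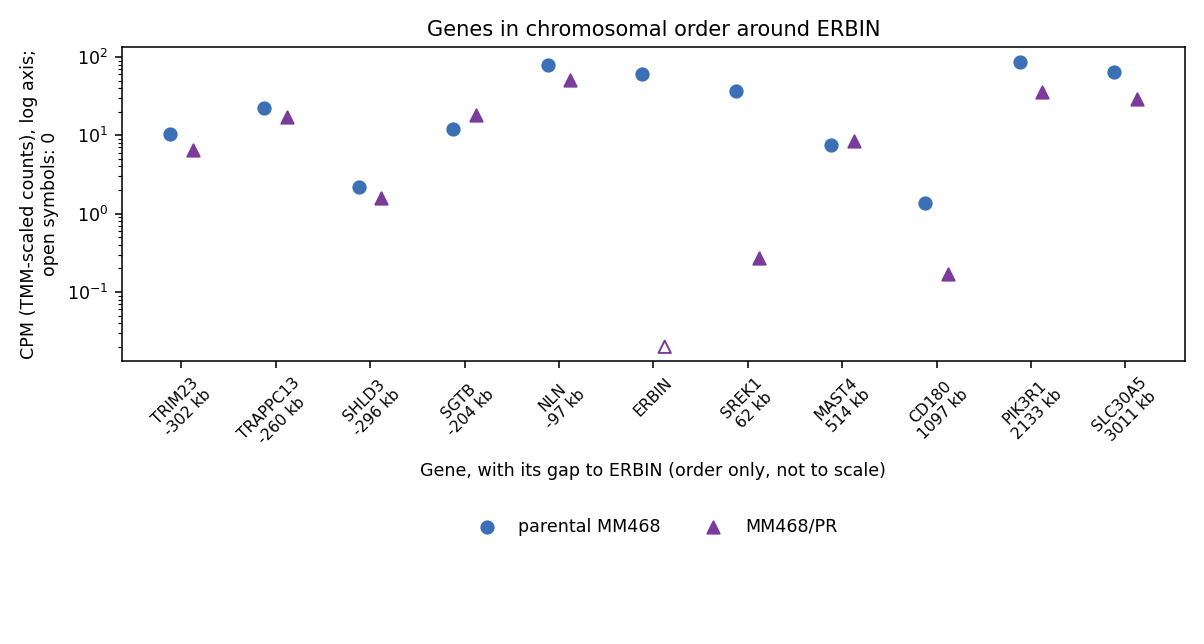
TMM-scaled CPM (vertical log axis) of ERBIN and the 5 nearest protein-coding genes on each side with 10 or more counts in at least 1 library of the series, in chromosomal order with the gap to ERBIN in kb under each name; symbols are the parental and MM468/PR libraries, and the open symbol marks 0. In MM468/PR, ERBIN is at 0 and SREK1 has 13 counts, while NLN and MAST4 lie within 2-fold of parental MM468.

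The listed relatives and partners of ERBIN numbered 10, of which 9 had 10 or more counts in at least 1 library of the series. In MM468/PR 1 of the 9 was higher by 2-fold or more, the junction protein CTNND2 with 0 and 11 counts, and 1 was lower, SMAD3, beside 20.6% and 13.7% of all genes compared. SMAD3, a transducer of TGF-beta signals, had 1775 and 1193 counts and was 2.29-fold lower in MM468/PR (2.13 to 2.47). SMAD3 was no longer 2-fold apart with library size only, TPM or FPKM, nor was CTNND2 with TPM or FPKM.

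Of the 6 listed ERBB ligands outside the 10 genes, 4 had 10 or more counts in at least 1 library of the series. Of these, EPGN and NRG4 were higher in MM468/PR by 2-fold or more and NRG2 was lower, beside 20.6% higher and 13.7% lower over all genes compared. EGF had 217 counts in the parental line and 293 in MM468/PR and was 1.14-fold lower (0.954 to 1.37), which is within counting error. Of the neuregulins, NRG1 and NRG3 had 0 counts in both libraries. NRG2 had 68 and 22 counts and was 4.77-fold lower in MM468/PR (2.91 to 8.10), and NRG4 had 3 and 11 counts, a ratio of 2.38 within counting error (0.628 to 13.3). With a pseudocount of 1 added to TPM or FPKM, neither was 2-fold apart. Of 8 genes for the release of ligands, 7 had 10 or more counts in at least 1 library of the series, and RHBDL2, a rhomboid protease, was the only one 2-fold apart. It had 1293 and 643 counts and was 3.10-fold lower in MM468/PR (2.82 to 3.41). Thus 0 of the 7 were higher and 1 lower, beside 20.6% and 13.7% of all genes compared.

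Of 28 adaptors and kinases that carry the ERBB signal to ERK and AKT, 3 were lower by 2-fold or more in MM468/PR by TMM-scaled counts, namely MAP2K1, PIK3R1 and SHC1, and 0 were higher, beside 13.7% lower and 20.6% higher over all genes compared. MAP2K1, which encodes the ERK kinase MEK1, had 2022 counts in the parental line and 1157 in MM468/PR and was 2.70-fold lower (2.51 to 2.90). PIK3R1 was 2.47-fold lower (2.33 to 2.63). SHC1, an adaptor recruited to phosphorylated receptors, had 1982 and 1335 counts and was 2.29-fold lower (2.13 to 2.46), which fell short of 2-fold with library size only, TPM or FPKM. The median log2 fold change of the list was -0.17, beside 0.07 over all genes compared.

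Of 17 inhibitors and feedback regulators, 1 was higher in MM468/PR by 2-fold or more, SPRY2, and 5 were lower, namely SPRY1, DUSP4, LRIG1, SPRY4 and DUSP5, beside 20.6% higher and 13.7% lower over all genes compared. Sprouty proteins (SPRY) restrain RAS signaling, DUSP4 and DUSP5 are phosphatases of ERK, and LRIG1 promotes the degradation of ERBB receptors. SPRY1 had 748 counts in the parental line and 284 in MM468/PR and was 4.06-fold lower (3.54 to 4.67), and SPRY4 had 410 and 240 and was 2.63-fold lower (2.24 to 3.10). SPRY4 and DUSP5 were no longer 2-fold lower with a pseudocount of 1 added to TPM or FPKM. SPRY2, in contrast, had 1001 and 4598 counts and was 2.98-fold higher (2.78 to 3.19). The Sprouty genes thus stood on different sides of parental MM468. DUSP4 had 2409 and 1077 counts and was 3.45-fold lower (3.21 to 3.71), and LRIG1 had 4021 and 2115 and was 2.93-fold lower (2.78 to 3.09). The median log2 fold change of the list was -0.11. With scaling by library size only, log2 fold changes of genes with counts in both libraries rise by about 0.22. The rise is smaller where a library had no counts. The median of all genes thus moves with the lists, from 0.07 to 0.29.

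Of 14 genes whose transcripts respond to ERK, 2 were higher in MM468/PR by 2-fold or more and 3 were lower, or 14.3% and 21.4%, which is near the 20.6% and 13.7% of all genes compared. FOSL2, an AP-1 subunit, had 4584 counts in the parental line and 18338 in MM468/PR and was 2.59-fold higher (2.51 to 2.68), and CCND1 (cyclin D1) had 2697 and 8532 and was 2.05-fold higher (1.96 to 2.14). IER3, an immediate early gene, had 17989 and 7476 counts and was 3.71-fold lower (3.61 to 3.81). IER2, another immediate early gene, and the ETS factor ETV4 were also lower, ETV4 by 2.13-fold (1.87 to 2.43). The median log2 fold change of the list was -0.29. With library size only, TPM or FPKM, IER3 was 2-fold lower in MM468/PR, and IER2 and ETV4 were not.

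**Figure D5:**
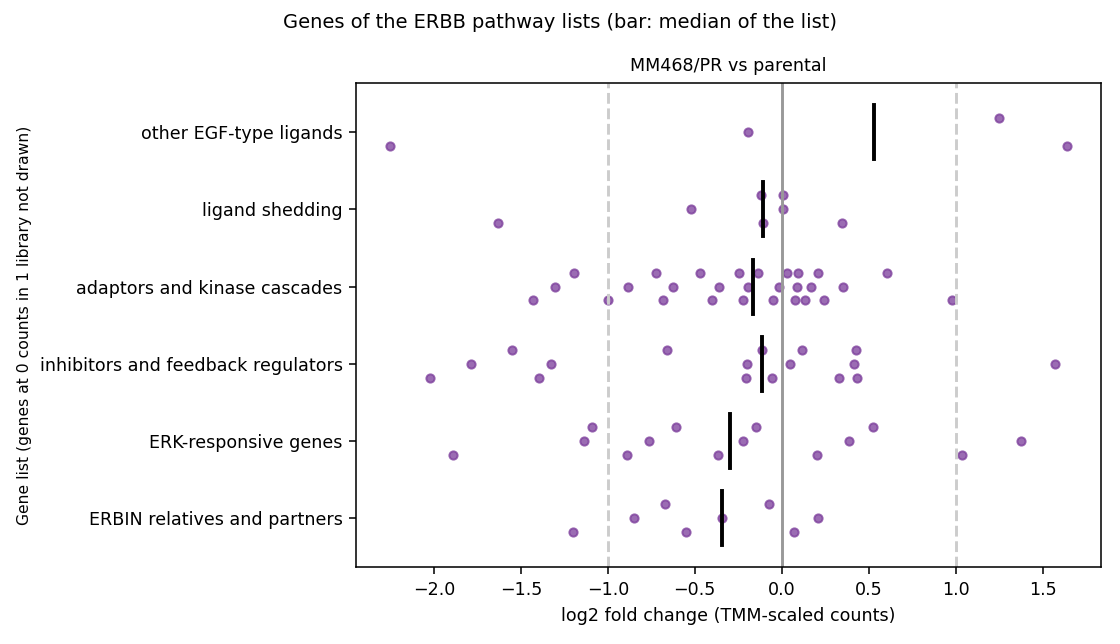
log2 fold change of TMM-scaled counts (horizontal axis) of each gene of 6 ERBB pathway lists (vertical axis) in MM468/PR against parental MM468, 1 library per line; dots are genes with 10 or more counts in at least 1 library of the series, black bars list medians, dashed lines 2-fold, and genes at 0 counts in either library are not drawn. The medians of the kinase, inhibitor and ERK-responsive lists lie at -0.17, -0.11 and -0.29, beside 0.07 over all genes compared. Those of the ligand shedding genes, the ERBIN relatives and partners and the other EGF-type ligands lie at -0.11, -0.35 and 0.53.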

How the data were processed

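Total RNA of the cultures was sequenced by Macrogen Japan Corp. from stranded mRNA libraries. The submitters' processing notes name Trimmomatic 0.39, HISAT2 2.2.1, StringTie 2.2.1 and the GRCh38 build, without their roles. The authors deposited 1 table with whole-number read counts per gene that were not normalized, and with FPKM and TPM levels computed by the authors. Counting program, strand setting and annotation release are not given in the sources used here. Another library of the series entered the normalization and the minimum counts, and its results are not reported here. Total counts were 32704885 in parental MM468 and 43242628 in MM468/PR. Library sizes were scaled by TMM (edgeR 4.0.16, R 4.3.3) over genes with 10 or more counts in at least 1 of the 3 libraries, and the factors were 0.948 for parental MM468 and 1.106 for MM468/PR. A gene was called apart at 2-fold with a prior count of 0.125, and intervals were computed with scipy 1.17.1. With 1 library per line, no test was run and p-values were not computed. The fold code was tested on simulated data. Gene positions and promoter windows came from RefSeq (GRCh38.p14). The 10 genes and the lists were chosen with earlier results of these data known. Named were the 10 genes, their chosen neighbours, EPGN, EGF and the neuregulins, cell type markers, and up to 4 genes per list by size among those with 100 or more counts. Genes named outside this rule (CTNND2, DUSP5, SPRY4, CCND1, MIEN1 and those said to be singled out) were chosen after their values were seen. Alternatives tried were library size only, DESeq2 1.42.0 size factors, TMM on the libraries compared, another prior count, and other minimums and thresholds. TPM with pseudocounts of 1 or 0.1 and FPKM with a pseudocount of 1, on a log2 scale, were also tried.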

Additional observations from a re-analysis of the deposited data

How the results depend on the processing

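No paired analysis was possible because each line gave 1 library, and no replicate could be left out. Scaling by library size only moved the median of all genes in MM468/PR against parental MM468 by 0.22 on the log2 scale, and raised the share of higher genes among those 2-fold apart from 60.0% to 70.8%. TPM with a pseudocount of 1 or 0.1 moved that median by 0.19 or 0.31 and gave shares of 71.2% or 75.0%. The 2 of the 10 genes that were higher became 0 with FPKM + 1 and 1 with a count in all 3 libraries, and the 1 lower became 0 with a count in all 3 libraries, which leaves out ERBIN and ERBB4 by construction. Over all genes, 2612 were higher and 1059 lower with TPM + 1, 1637 lower with TPM + 0.1, 1374 and 882 with FPKM + 1, 6952 and 4033 without a count minimum, 1635 higher with a minimum of 100, and 2096 and 936 at 4-fold, against 4032 and 2684. Of 56 alternative fold changes of the 8 genes with counts in both libraries, 33 lay within the counting interval and 23 outside it, and 4 had the other sign, all of EGFR. ERBB4, EREG and ERBIN kept their direction under the 7 alternatives of scaling, unit or prior count. Counts of the pathway lists and neighbours were run under the same alternatives after the data were seen, and 129 of 176 stayed within 1.5 times.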
